A study of Mus musculus with 10 samples.

Results

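The genes described here encode the proteins of oxidative phosphorylation, together with a few of their assembly factors. They were taken from the deposited tables of RNA polymerase II promoter peaks by gene symbol: names that begin with Nduf, Uqcr or Atp5, the succinate dehydrogenase genes Sdha to Sdhd, and cytochrome c oxidase names from Cox4 to Cox8. The rule found 75 genes of the 10419 with a promoter peak in at least 1 of 6 libraries. Of these, 7 encode core subunits of complex I, 26 its accessory subunits, 2 subunits of complex II, 7 of complex III, 14 of complex IV and 14 of complex V. Another 4 (Ndufaf1, Ndufaf3, Ndufaf4 and Ndufaf6) encode assembly factors of complex I, and Atp5sl encodes a related protein that is not a subunit. Ndufa4 and Ndufa4l2 carry complex I names but were counted with complex IV, where the Ndufa4 protein is now placed.

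Polymerase II was mapped by chromatin immunoprecipitation and sequencing (ChIP-seq) with antibody 8WG16 in primary mouse T cells. The strain was Balb/c DO11.10, which carries a transgenic T cell receptor. The cells of all groups had been primed under Th1 conditions, grown in an interleukin 2 analogue and then rested without it for a day. They were left without restimulation (NR), or restimulated with plate-bound anti-CD3 and soluble anti-CD28 for 30 min or for 2 h, with 2 libraries in each group. The labels number the libraries as replicates and do not name a separate animal or culture for each. The p-values below therefore reflect spread among libraries alone, and this spread may be technical. A further 3 libraries for a histone mark and 1 input library were not analysed here.

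The lists held 15330 to 23299 peaks per library, of which 9074 to 10680 lay within 1000 bp of a transcription start and were assigned by the authors to 1 gene each. Read depth is not given in the files. The smallest local background that each list implies, in reads, was lower in replicate 1 (0.659 in NR, 1.57 at 30 min and 2.48 at 2 h) than in replicate 2 (5.89 in NR, 4.65 at 30 min and 5.55 at 2 h). Peaks were also longer in every replicate 2 list, so called length moves with this depth, and its part in the results was not tested. All 7 T cell markers (Cd3e, Cd3g, Cd3d, Cd247, Cd4, Lck and Cd28) had a promoter peak in every library, with a summed length of 16389 and 20936 bp in NR, 21425 and 44264 bp at 30 min and 32850 and 39291 bp at 2 h. Of the 5 Th1 markers, 4 or 5 had one in each library. No B cell marker (5 genes) and no myeloid marker (5 genes) had a peak in any library, and of the 4 CD8 T cell and natural killer cell markers Cd8b1 alone had one, in the replicate 2 libraries. The early response genes Egr2 and Egr3 had no peak in either NR library and had 7853 to 17173 bp of called promoter DNA in the 30 min and 2 h libraries.

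Oxidative phosphorylation takes place in the inner mitochondrial membrane. Complexes I and II pass electrons from NADH and succinate through complex III and cytochrome c to complex IV, which reduces oxygen, and complex V uses the proton gradient that results to make ATP. All proteins listed here are encoded in the nucleus. T cells that leave the resting state increase glycolysis and mitochondrial respiration together, and the transcription factors NRF1, GABP (an ETS family protein) and YY1 are known regulators of respiratory chain genes in mammals.

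The 300 bp RefSeq promoter windows (build GRCm38.p6, 250 bp before the start to 50 bp after it) are shown for 6 of the genes as examples. Each window holds a match to one of those factors' motifs, and called polymerase DNA covered the start in all 6 libraries. Whether each match itself lay under called DNA was not examined, and other genes, such as Uqcrc1, also met these conditions. Capitals mark the matches, and each sequence reads 5′ to 3′ on the strand of the gene. Sdha, the flavoprotein subunit of complex II (chr13:74350191-74350490, minus strand), has 3 NRF1 matches, which begin 98, 55 and 10 bases before the start. Cox6a1, the broadly expressed complex IV subunit (chr5:115348909-115349208, minus), has NRF1 matches that begin 162 and 117 bases before the start and an ETS match 16 bases before it. Ndufs6, an accessory subunit of complex I (chr13:73328433-73328732, minus), has an NRF1 match 16 bases before the start and a YY1 match 33 bases after it. Atp5b, the catalytic beta subunit of complex V (chr10:128083057-128083356, plus), has a YY1 match 16 bases after the start. Atp5e, the epsilon subunit (chr2:174464052-174464351, minus), has an ETS match 102 bases before it. Ndufs3, a core subunit of complex I (chr2:90904672-90904971, minus), has ETS matches that begin 27 bases before the start and 1 base after it.
Sdha: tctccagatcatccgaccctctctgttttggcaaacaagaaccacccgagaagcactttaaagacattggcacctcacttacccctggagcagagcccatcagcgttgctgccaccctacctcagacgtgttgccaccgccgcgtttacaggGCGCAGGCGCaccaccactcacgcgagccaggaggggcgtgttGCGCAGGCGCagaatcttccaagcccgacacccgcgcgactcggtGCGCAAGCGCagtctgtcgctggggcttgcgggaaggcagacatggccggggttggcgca
Cox6a1: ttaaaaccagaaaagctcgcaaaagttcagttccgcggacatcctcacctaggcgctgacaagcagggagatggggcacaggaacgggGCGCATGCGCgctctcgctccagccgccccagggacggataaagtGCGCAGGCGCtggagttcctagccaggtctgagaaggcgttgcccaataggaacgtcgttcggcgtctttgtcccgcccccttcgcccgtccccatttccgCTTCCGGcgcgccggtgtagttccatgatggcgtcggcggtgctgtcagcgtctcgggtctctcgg
Ndufs6: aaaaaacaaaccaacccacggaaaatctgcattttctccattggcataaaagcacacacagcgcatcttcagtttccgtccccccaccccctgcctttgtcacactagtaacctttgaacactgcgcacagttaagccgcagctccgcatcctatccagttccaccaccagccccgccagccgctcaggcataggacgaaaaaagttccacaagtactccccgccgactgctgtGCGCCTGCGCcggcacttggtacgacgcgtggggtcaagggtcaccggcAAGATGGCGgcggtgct
Atp5b: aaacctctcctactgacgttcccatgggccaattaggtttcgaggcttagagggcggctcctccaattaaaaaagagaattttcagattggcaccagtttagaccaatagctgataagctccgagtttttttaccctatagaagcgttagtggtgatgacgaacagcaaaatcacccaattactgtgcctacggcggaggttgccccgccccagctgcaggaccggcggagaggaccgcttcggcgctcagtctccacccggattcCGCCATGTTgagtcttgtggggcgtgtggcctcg
Atp5e: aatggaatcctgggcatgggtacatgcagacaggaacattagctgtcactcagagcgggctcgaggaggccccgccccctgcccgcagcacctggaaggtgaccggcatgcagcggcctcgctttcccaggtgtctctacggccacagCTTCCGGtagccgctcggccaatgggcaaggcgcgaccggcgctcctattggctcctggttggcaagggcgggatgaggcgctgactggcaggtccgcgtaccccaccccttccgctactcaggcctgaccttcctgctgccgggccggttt
Ndufs3: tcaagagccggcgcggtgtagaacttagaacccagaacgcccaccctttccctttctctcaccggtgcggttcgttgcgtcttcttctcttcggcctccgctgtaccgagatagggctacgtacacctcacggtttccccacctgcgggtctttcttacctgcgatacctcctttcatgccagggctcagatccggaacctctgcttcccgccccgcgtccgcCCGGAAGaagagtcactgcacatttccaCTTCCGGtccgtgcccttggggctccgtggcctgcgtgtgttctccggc

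Windows were found for 65 of the 75 genes, 70 windows in all since some genes have more than 1 start. Motifs were searched on both strands as the letters GCGCA and GCGC with any 1 base between them for NRF1, CCGGAAG for ETS factors, AANATGGCG for YY1 and TATAAA for the TATA box, and none of these strings contains another. NRF1 letters were in 22.9% of the windows of oxidative phosphorylation genes, 11.6% of the 7557 windows of genes with a peak in all 6 libraries, and 6.38% of all 21262 protein-coding windows. YY1 letters were in 15.7%, 6.09% and 3.12% of the same windows. ETS letters were in 21.4%, 21.1% and 11.6%, so the oxidative phosphorylation genes and other genes with a peak in all 6 libraries had nearly the same share. The TATA box was in 5.71%, 6.63% and 12.6%. At least 1 of the NRF1, ETS and YY1 motifs was in 54.3% of the windows, against 34.2% and 18.8%. The median GC content was 57.5%, against 61.3% and 56.3%. A match of letters is a description and not a bound site.

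**Figure D1:**
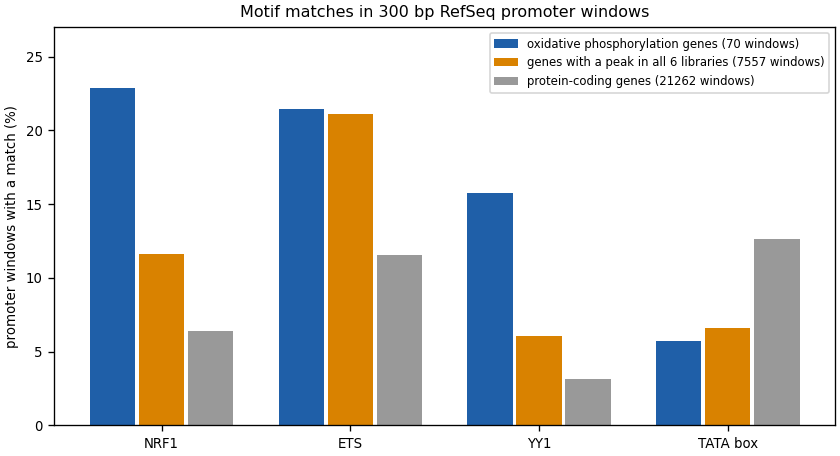
Share of 300 bp RefSeq promoter windows (%, vertical axis) that hold the letters of 4 motifs on either strand, in 70 windows of oxidative phosphorylation genes, 7557 windows of genes with a peak in all 6 libraries and 21262 windows of protein-coding genes. NRF1 and YY1 letters are more frequent in the oxidative phosphorylation genes (22.9% and 15.7%) than in either other set, while ETS letters are at 21.4% and 21.1% in the first 2 sets.

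Polymerase was called at the start of nearly every one of these genes in cells that had not been restimulated. A promoter peak was assigned to 68 and 71 of the 75 genes in the NR libraries (replicates 1 and 2), to 69 and 72 at 30 min and to 72 and 71 at 2 h. Of all 10419 genes, 8359 and 9405 had one in NR, 8058 and 9704 at 30 min and 9310 and 9700 at 2 h. An assigned peak in all 6 libraries was found for 66 of the 75, and for 7410 of the 10419. Both sets hold only genes with a peak in at least 1 library, so high counts are partly set by the rule. In the 65 genes with a RefSeq window, called DNA covered a start in all 6 libraries in 61. Peaks sat close over the start: the median summit lay 50 to 78 bp downstream of it across libraries. The median peak over a start reached 327 to 650 bp into the gene, against 386 to 713 bp over all genes with such a peak. In no NR library did an assigned peak cover a whole gene of the group, and at 30 min and 2 h assigned peaks covered at most 3 genes per library. The share covered was 0 to 4.23% in the group, against 1.89% to 4.25% over all genes. Peaks assigned to Snora78 also spanned all of Ndufb10 in 30 min replicate 2 and both 2 h libraries. In bulk cells, fewer cells with polymerase at a gene and less polymerase per cell cannot be told apart.

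The remaining 9 genes had an assigned peak in fewer libraries. Ndufs3 and Uqcrh, a small subunit of complex III, were each assigned a peak in 2 h replicate 1 alone, of 276 and 497 bp. By position, counting any called promoter DNA within the RefSeq gene and 1000 bp on either side, both had called DNA in all 6 libraries, 635 to 1337 bp for Ndufs3 and 1133 to 1824 bp for Uqcrh. The peaks over these starts had been assigned to the neighbours Kbtbd4 and Lrrc41. Cox6b2, the testis form of complex IV subunit 6b, had 458 bp in 30 min replicate 2 and no peak in the other libraries. Ndufa8 and the assembly factor gene Ndufaf6 had no peak in NR replicate 1 and 30 min replicate 1 and 375 to 905 bp in the other 4 libraries. Uqcr11 had no peak in NR replicate 1 and 513 to 1107 bp in the other libraries. These last 3 genes thus lacked a peak in replicate 1 libraries only, which have the lower background. Ndufb10, Ndufa4l2 and Ndufs1 are described with the loci below. By position, 70 of the 75 genes had called DNA in all 6 libraries.

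Symbols left some genes of the pathway outside the rule. RefSeq lists 97 protein-coding genes that match it, counting 2 that the files list under older symbols. Of the 22 that are not among the 75, 13 had called DNA in all 6 libraries that the authors assigned to a neighbour, among them Sdhc and Sdhd of complex II, Cox4i1, the broadly expressed form of complex IV subunit 4, and Uqcrb of complex III. The Sdhd peak was assigned to Timm8b and measured 1197 and 1216 bp by position in NR, 1072 and 1638 bp at 30 min and 1375 and 1683 bp at 2 h. The Cox4i1 region had 851 and 1017 bp in NR, 899 and 1292 bp at 30 min and 1013 and 1161 bp at 2 h. With these genes counted by position, polymerase was called at all 4 genes of complex II in every library.

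Another 7 genes had no called promoter DNA in any library: Cox4i2, Cox6a2, Cox7b2, Cox8b, Cox8c, Ndufb4b and Ndufb4c. The 5 Cox genes are the tissue-restricted isoforms of subunits whose broadly expressed partners, Cox4i1, Cox6a1, Cox7b and Cox8a, had called DNA in all 6 libraries. Cox7a1, the heart and muscle form of subunit 7a, differed from them: it had 762 and 617 bp in NR, 558 and 1174 bp at 30 min and 662 and 902 bp at 2 h, with summits 98 to 221 bp before its start. Its ubiquitous partner Cox7a2 had 611 and 863 bp in NR, 736 and 963 bp at 30 min and 772 and 1071 bp at 2 h. The 2 isoform genes thus overlapped in every group.

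Within each library the peaks of this group ranged over the whole scale of fold enrichment, the ratio of pileup at the summit to local background. Ranks are given as percentiles among the promoter peaks of the same library, using the strongest peak of each gene, and were not compared between libraries. The median of the group was 53.6 and 57.3 in NR, 49.2 and 59.3 at 30 min and 53.7 and 62.7 at 2 h, against 54.0 to 55.4 over all genes. Among the highest was Atp5a1, the alpha subunit of complex V, with percentiles of 96.1 and 93.2 in NR, 96.8 and 98.2 at 30 min and 97.9 and 96.5 at 2 h. Ndufaf3 averaged 92.4, Ndufa13 90.0 and Ndufs1, the largest core subunit of complex I, 89.2. The lowest value of any of these 4 genes in a library where it had a peak was that of Ndufs1 in NR replicate 2, 73.7. In the 5 libraries where it was ranked, the Ndufs1 summit lay 312 to 359 bp before its start, within the neighbouring gene Eef1b2. Its rank therefore cannot be told apart from that of Eef1b2.

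Genes of the same complex lay far apart in rank. Core subunits of complex I had the highest median of the gene averages, 72.5, with Ndufs3 at 5.90 and Ndufs1 at 89.2. The Ndufs3 value is from a peak of 276 bp in 2 h replicate 1 that did not cover its start. Complex III had 65.1, complex II 63.2, complex I accessory subunits 58.1, complex V 54.5 and complex IV the lowest of the complexes, 36.4. Within complex IV, Cox5a averaged 86.7 and Cox5b 66.5, whereas Cox6b1 averaged 20.4, Cox7b 23.3 and Cox8a 27.9. The 3 genes for the same mature c subunit of complex V averaged 82.7 (Atp5g3), 71.7 (Atp5g2) and 44.4 (Atp5g1). The lowest of all were Cox6b2, Ndufs3, Ndufa8, Uqcrh and Ndufa4l2, with averages of 4.98, 5.90, 6.38, 9.43 and 17.9 over the libraries where each had a peak. Of these, only Ndufa8 was ranked by peaks over its RefSeq start. The peaks over the starts of Ndufs3 and Uqcrh were assigned to neighbours and do not enter their ranks. Ndufab1, the mitochondrial acyl carrier protein, ranged from 1.18 to 35.9. Averages that are neighbours in the order differ by less than the ranges of the genes over their libraries, which were often over 20 percentile points wide.

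**Figure D2:**
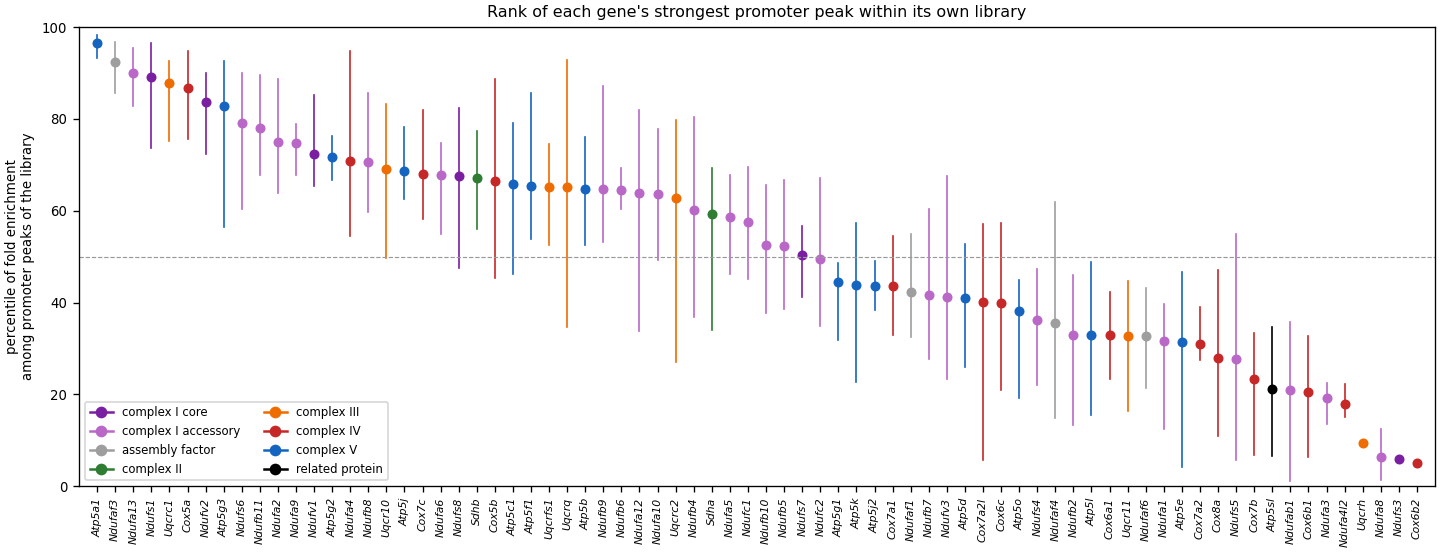
Percentile of the fold enrichment of each gene's strongest promoter peak among the promoter peaks of its own library (vertical axis), for 74 of the 75 genes ordered by their average. Points are means over the libraries in which the gene had a peak, lines run from the lowest to the highest library, and colours mark complexes; Atp5a1 leads those shown at 96.4, and complex IV genes fill much of the lower range.

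The median called promoter DNA per gene was shorter in this group than over all genes in every library. The median called promoter length of the genes with a peak was 715 and 864 bp in NR, 635 and 1084.5 bp at 30 min and 999.5 and 1217 bp at 2 h. Over all genes it was 806 and 984 bp, 777 and 1284 bp, and 1121 and 1336 bp in the same order. The share with over 2000 bp was 2.90% to 15.3% in the group, against 7.90% to 24.5% over all genes. The genes themselves are shorter too. Among genes with a peak over the start, the median gene length was 6866.5 to 6919 bp in the group, against 18051.5 to 18585.5 bp over all genes. The part of gene length was not tested. Among the complexes, genes of complex V with a peak in at least 2 libraries had the longest median in 5 of the 6 libraries, up to 1669.5 bp in 2 h replicate 2. In 30 min replicate 1 the core genes of complex I had 807.5 bp and those of complex V 759.5 bp.

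By assigned peaks, the longest called DNA lay at Ndufaf3, with 2601 and 3036 bp in NR, 2418 and 3527 bp at 30 min and 3548 and 5041 bp at 2 h. By position Ndufaf3 had 2065 to 2626 bp and was the longest in no library. Ndufa13 had more by position in both NR libraries (2317 and 2362 bp), and Ndufb10 in the 30 min and 2 h libraries and in NR replicate 2. Other genes also had more in single libraries, among them Ndufa6 in 30 min replicate 2 (5686 bp) and Uqcrq in 2 h replicate 2 (4122 bp). By assigned peaks Ndufa13 had 2317 and 2513 bp in NR, 2054 and 2591 bp at 30 min and 2490 and 2531 bp at 2 h, nearly the same length in bp in every library. The library medians were longer at 2 h than in NR. In the centred fit described below, the log2 change of Ndufa13 at 2 h against NR was -0.42 ± 0.21 (limma adjusted p = 0.466). Atp5j, a stalk subunit of complex V, had 1294 and 2116 bp, 1534 and 2188 bp, and 2250 and 2826 bp in the same order. Ndufa6 and Uqcrq completed the 5 longest, each through single libraries. Ndufa6 had 5898 bp in 30 min replicate 2 and 851 to 1466 bp in the other libraries. Uqcrq had 3125 bp in 30 min replicate 2 and 4122 bp in 2 h replicate 2, against 564 to 1412 bp in the other 4.

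**Figure D3:**
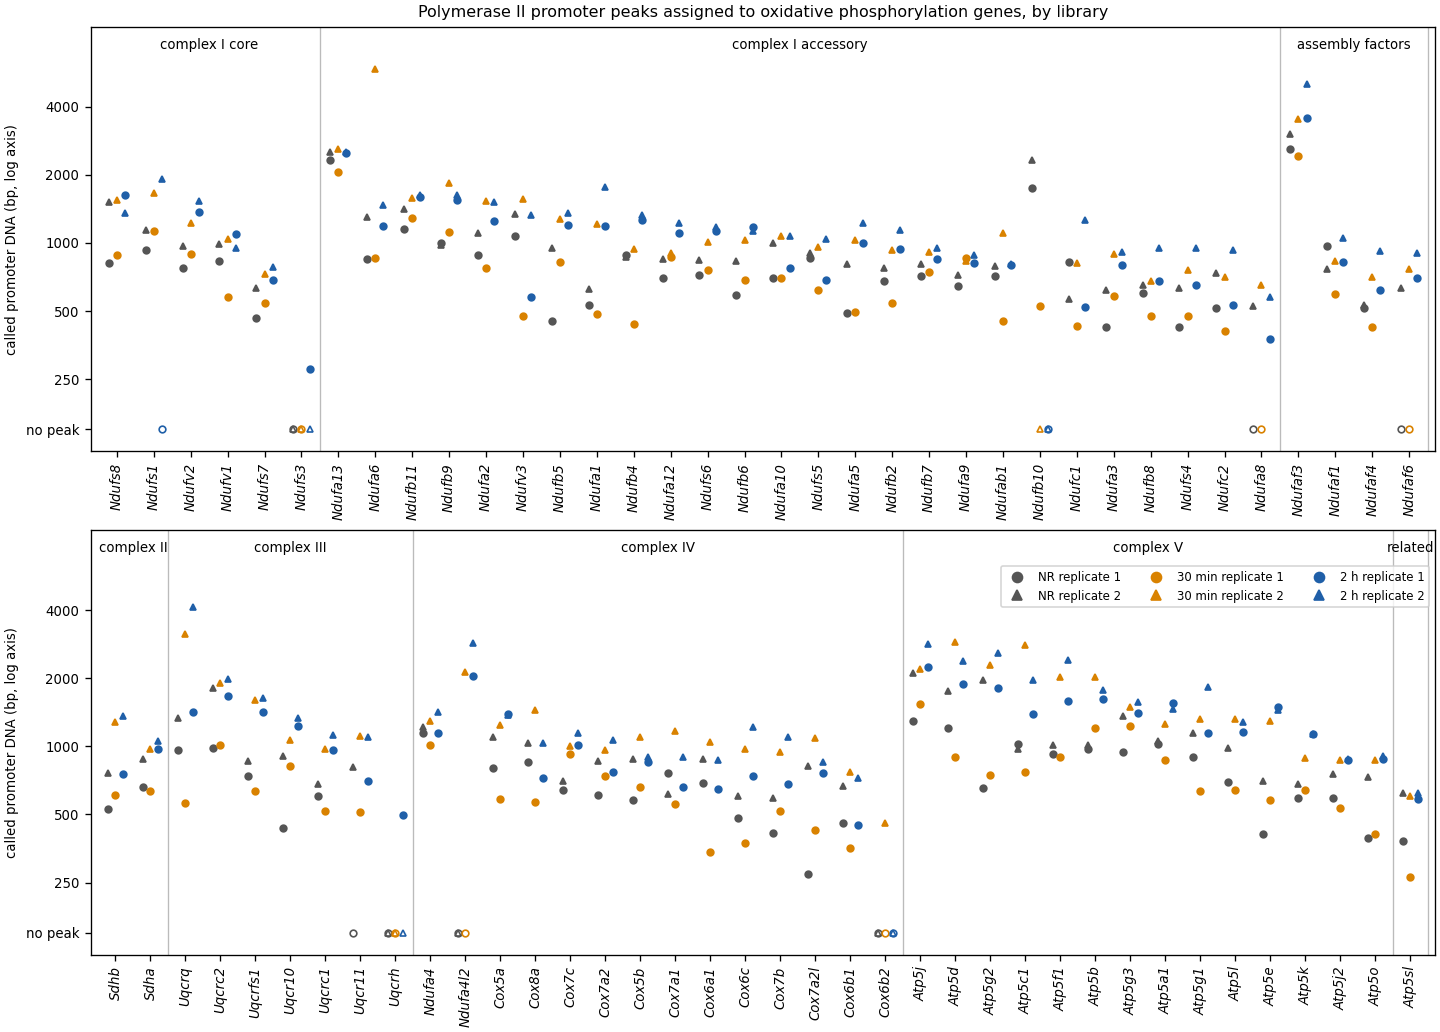
Called promoter DNA assigned to 74 of the 75 genes (bp, log axis) in each of the 6 libraries, by complex; circles are replicate 1, triangles replicate 2, colours mark NR, 30 min and 2 h, and open symbols on the lowest line mark libraries with no assigned peak. Replicate 2 lies above replicate 1 for most genes in every group, and 65 of the 74 genes have a value in all 6 libraries.

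Whether restimulation moved these genes was asked of called promoter length, taken as log2(bp + 100) and centred on each library's median over the 7410 genes with a peak in all 6 libraries. The fit was limma over all 6 libraries and all 9908 genes with a peak in at least 2 of them, 72 of the 75 included, and a gene passed when its p, adjusted by the Benjamini-Hochberg method, was under 0.05. All log2 changes below are from this model, and they understate the change where little DNA was called. Over all genes 23 were longer and 1 shorter at 30 min relative to NR, and 37 longer and 6 shorter at 2 h relative to NR. Between 2 h and 30 min 0 passed in either direction, with 513 at an unadjusted limma p under 0.05. Nr4a3, an early response gene set beside the group for scale, had log2 changes of 4.79 ± 0.18 (SE, n = 2 against 2) at 30 min and 3.99 ± 0.18 at 2 h, with limma adjusted p of 0.00133 and 0.00283.

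No oxidative phosphorylation gene passed the threshold in any comparison. At 30 min against NR 0 of the 72 were longer, against 0.232% of all genes, and 0 were shorter, against 0.0101%. At 2 h against NR 0 were longer, against 0.373%, and 0 were shorter, against 0.0606%. Between 2 h and 30 min the share over all genes was 0.0% in both directions. At these shares fewer than 1 of 72 genes would be called, so a count of 0 lies at the background. At an unadjusted limma p under 0.05 there were 3, 5 and 1 of the 72 in the 3 comparisons, beside 793, 1249 and 513 of the 9908 over all genes.

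The changes of the group lay close to those of other genes. Its median log2 change was -0.01 (30 min with NR), 0.02 (2 h with NR) and 0.02 (2 h with 30 min), where all genes had -0.04, -0.03 and -0.01. Among the 66 genes with a peak in all 6 libraries, log2 changes ran from -0.58 (Ndufv3) to 0.90 (Ndufa6) at 30 min against NR and from -0.88 (Ndufv3) to 0.82 (Atp5e) at 2 h against NR. Between 2 h and 30 min they ran from -1.07 (Ndufa6) to 0.58 (Ndufb4). In these 66 genes 0, 0 and 1 change exceeded 1 on the log2 scale in either direction, beside 259 (3.50%), 327 (4.41%) and 129 (1.74%) of the 7410. The median SE of the 66 was 0.23, and none of their changes passed, so changes several times as large as the SE could have been missed. Ndufv3 itself had 1076 and 1344 bp in NR, 473 and 1558 bp at 30 min and 578 and 1325 bp at 2 h, where replicates differed more than groups.

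Without centring, called DNA was longer at 2 h than in NR for most of the group and for most other genes. At 30 min the replicates went apart: the median lengths of replicate 1 lay below those of both NR libraries, in the group and over all genes, and those of replicate 2 above. Centring removed 0.16 between 30 min and NR, 0.48 between 2 h and NR and 0.32 between 2 h and 30 min on the log2 scale. In bp, the libraries of 2 h and NR did not overlap for 46 of the 72 genes with 2 h longer (63.9%), against 52.3% of all genes, and for 1 gene with 2 h shorter, against 2.09%. At 30 min the counts were 5 longer (6.94%), against 11.5%, and 1 shorter, against 1.16%. Between 2 h and 30 min 17 were longer (23.6%), against 17.0%, and 0 shorter, against 0.727%. After centring, the counts of genes without overlap were 14 longer (19.4%) and 25 shorter (34.7%) at 2 h relative to NR, against 22.3% and 30.8% of all genes. For 30 min and NR they were 10 longer (13.9%), against 18.8%, and 13 shorter (18.1%), against 18.9%. For 2 h and 30 min they were 12 longer (16.7%), against 17.4%, and 7 shorter (9.72%), against 19.0%.

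By complex, 0 genes passed in each of them. At 2 h against NR the 6 tested genes of complex III had a median log2 change of 0.40, with 5 above 0. The 14 of complex V had 0.13, with 12 above 0. The 13 of complex IV had -0.19, with 6 above 0, the 6 core genes of complex I -0.18, with 1 above 0, and its 26 accessory genes -0.10, with 11 above 0. No test was made over members. With NR replicate 1 left out the median of complex V was -0.01, that of complex III 0.18 and that of the complex I accessory genes -0.04. Without 2 h replicate 1 the medians were -0.09 for complex IV and -0.05 for the accessory genes, and without 2 h replicate 2 that of the core genes was -0.09. Leaving out NR replicate 2 gave -0.13 for complex IV. At 30 min against NR the complex medians lay between -0.04 and 0.12, and at 2 h against 30 min between -0.17 and 0.15.

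**Figure D4:**
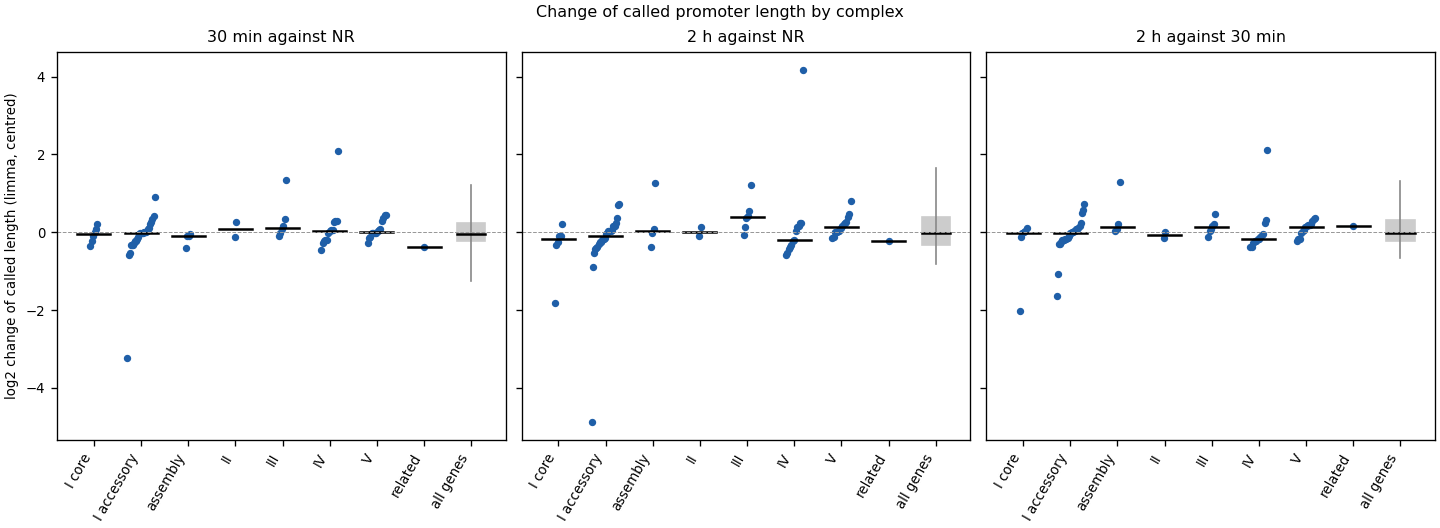
Log2 change of called promoter length (centred, limma) for the 72 tested genes by complex, in the comparisons of 30 min with NR, 2 h with NR and 2 h with 30 min. Each point is a gene, bars are group medians, and the grey box and line at the right give the 25th to 75th and the 5th to 95th percentiles of all genes tested; most points lie within the grey box, and the points farthest from 0 are genes with no assigned peak in at least 1 library.

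The genes with the largest changes among those whose groups did not overlap all missed the threshold. Atp5e had 409 and 701 bp in NR, 581 and 1289 bp at 30 min and 1487 and 1442 bp at 2 h. Its 2 h libraries lay above both NR libraries and both 30 min libraries, with a log2 change of 0.82 ± 0.22 at 2 h against NR (limma adjusted p = 0.280) and 0.37 ± 0.22 at 2 h against 30 min (adjusted p = 0.866). Ndufa1, an X-linked accessory subunit of complex I, had 533 and 623 bp in NR, 485 and 1217 bp at 30 min and 1188 and 1772 bp at 2 h. The 2 h libraries again lay above NR, with a change of 0.72 ± 0.23 (limma adjusted p = 0.324). Both genes kept a positive change at 2 h against NR when any 1 library was left out, 0.65 to 0.98 for Atp5e and 0.57 to 0.88 for Ndufa1.

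Atp5b, which had 977 and 1013 bp in NR, 1205 and 2031 bp at 30 min and 1612 and 1768 bp at 2 h, had the largest log2 change at 30 min against NR among the genes longer there without overlap. It was 0.45 ± 0.16 (limma adjusted p = 0.568). The other genes whose 30 min libraries lay above NR were Ndufb9 (0.34), Cox7c (0.30), Ndufa9 (0.12) and Ndufa12 (0.02), all with limma adjusted p of at least 0.711, and the last 3 were below 0 without 30 min replicate 1. Ndufb4 had 882 and 864 bp in NR, 438 and 942 bp at 30 min and 1259 and 1322 bp at 2 h. It had the highest log2 change at 2 h against 30 min of the 66 genes, 0.58 ± 0.21 (limma adjusted p = 0.866), and its 2 h libraries lay above all 4 others. In the same comparison Cox5a (0.31), Atp5k (0.21) and Ndufaf3 (0.20) also had 2 h libraries above 30 min, and none passed. By position Ndufaf3 had a change of -0.18 there.

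Cox8a, the broadly expressed subunit 8 of complex IV, had 850 and 1035 bp in NR, 568 and 1451 bp at 30 min and 726 and 1036 bp at 2 h. The groups overlapped in bp, and its centred log2 change was -0.58 ± 0.22 at 2 h against NR (limma adjusted p = 0.386). The other genes set for description had changes nearer to 0. Sdha had 659 and 881 bp in NR, 635 and 978 bp at 30 min and 976 and 1058 bp at 2 h, and a change of -0.11 ± 0.19 at 2 h against NR. Uqcrc1, a core subunit of complex III, had 602 and 683 bp, 518 and 973 bp, and 959 and 1126 bp in the same order, and a change of 0.14 ± 0.19. Ndufv1, which holds the NADH site of complex I, had 832 and 984 bp, 575 and 1045 bp, and 1099 and 946 bp, and a change of -0.32 ± 0.22. The limma adjusted p-values of these 3 changes were 0.839, 0.772 and 0.572.

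The largest changes of all belonged to 2 genes whose assigned peaks do not describe their start sites. Ndufb10, an accessory subunit of complex I, lies tail to tail with the ribosomal protein gene Rps2 on chromosome 17, Ndufb10 on the minus and Rps2 on the plus strand. It had 1742 and 2331 bp in NR, 526 and 0 bp at 30 min and no assigned peak at 2 h. The limma adjusted p was 0.204 at 2 h and 0.567 at 30 min against NR, and no fold is given since its size is set by the pseudocount. In NR, separate peaks stood over the Ndufb10 start, over its gene body and over Rps2. In 30 min replicate 2 and both 2 h libraries a single peak of 6745, 6640 and 6983 bp ran across both genes, had its summit inside Rps2 and was assigned to Snora78, a small nucleolar RNA gene within Rps2. By position Ndufb10 had 1742 and 2331 bp in NR, 3038 and 3658 bp at 30 min and 3535 and 3641 bp at 2 h. The change by position was 0.55 at 30 min and 0.33 at 2 h (limma adjusted p of 0.596 and 0.557), opposite in sign to that of the assigned length. Called DNA covered the Ndufb10 start in all 6 libraries.

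Ndufa4l2, a relative of Ndufa4 known as a hypoxia-induced gene, was listed with no peak in NR and in 30 min replicate 1, so no fold over NR is given. It had 2124 bp in 30 min replicate 2 and 2051 and 2864 bp at 2 h (limma adjusted p = 0.287 at 2 h against NR). The authors' annotation starts the gene at position 127514939 of chromosome 10, RefSeq at 127509274. The called DNA began 4858 bp or more after the RefSeq start and ended at most 8132 bp after it, near the 3′ end of the gene, which adjoins the 3′ end of Shmt2, a mitochondrial serine hydroxymethyltransferase transcribed toward it. Shmt2 had 932 bp at its own start in NR replicate 2 and none in NR replicate 1, 303 and 1525 bp at 30 min and 1647 and 1930 bp at 2 h. Which of the 2 genes the polymerase in between belongs to cannot be told apart from these peaks. The lists of all summits, promoter or not, also placed 1 summit 2558 to 2881 bp after the RefSeq start in every library but 30 min replicate 1, both NR libraries included, so polymerase was called inside the gene in NR cells too. No promoter peak covered its RefSeq start in any library.

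Calls for these 2 genes depended on whether both 30 min libraries were in the fit, and the cause was not tested. Over all genes, 37 were longer and 6 shorter at 2 h against NR with all 6 libraries. With the 2 h and NR libraries alone, 148 were longer and 25 shorter. In a fit of the 2 h and NR libraries alone, both passed, Ndufb10 as shorter (limma adjusted p = 0.0187) and Ndufa4l2 as longer (limma adjusted p = 0.0219), and both passed at 2 h against NR without either 30 min library. Over the 15 alternatives the adjusted p at 2 h against NR ran from 0.0110 to 0.781 for Ndufb10 and from 0.0180 to 0.905 for Ndufa4l2. The 2 h libraries of Ndufb10 and the NR libraries of Ndufa4l2 are all at no peak and add no measured spread, so these p-values may be too small. Ndufa6 passed once, at 30 min against NR without 30 min replicate 1 (1.83, limma adjusted p = 0.0449), a fit that leaves the 5898 bp of 30 min replicate 2 as the only 30 min value. Over its alternatives the adjusted p ran from 0.0449 to 1.0, and without 30 min replicate 2 the change was -0.03.

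The peak of Ndufa6 in 30 min replicate 2 ran from 533 bp before its start to 5364 bp after it, past the end of a gene of 4153 bp. Uqcrq behaved alike in 2 libraries: peaks ran to 2793 bp after the start in 30 min replicate 2 and to 3393 bp in 2 h replicate 2, past the RefSeq end of the gene at 2909 bp in the second. Its 2 h libraries had 1412 and 4122 bp, against 962 and 1337 bp in NR, a log2 change of 0.56 ± 0.60 (limma adjusted p = 0.716), which was -0.07 without 2 h replicate 2. Ndufs1 had 935 and 1135 bp in NR, 1130 and 1668 bp at 30 min and 0 and 1907 bp at 2 h. In 2 h replicate 1 the peak over its start measured 2857 bp, had its summit 327 bp before the Ndufs1 start and was assigned to Snora41, within the translation elongation factor gene Eef1b2 on the other side. By position Ndufs1 had called DNA in all 6 libraries.

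**Figure D5:**
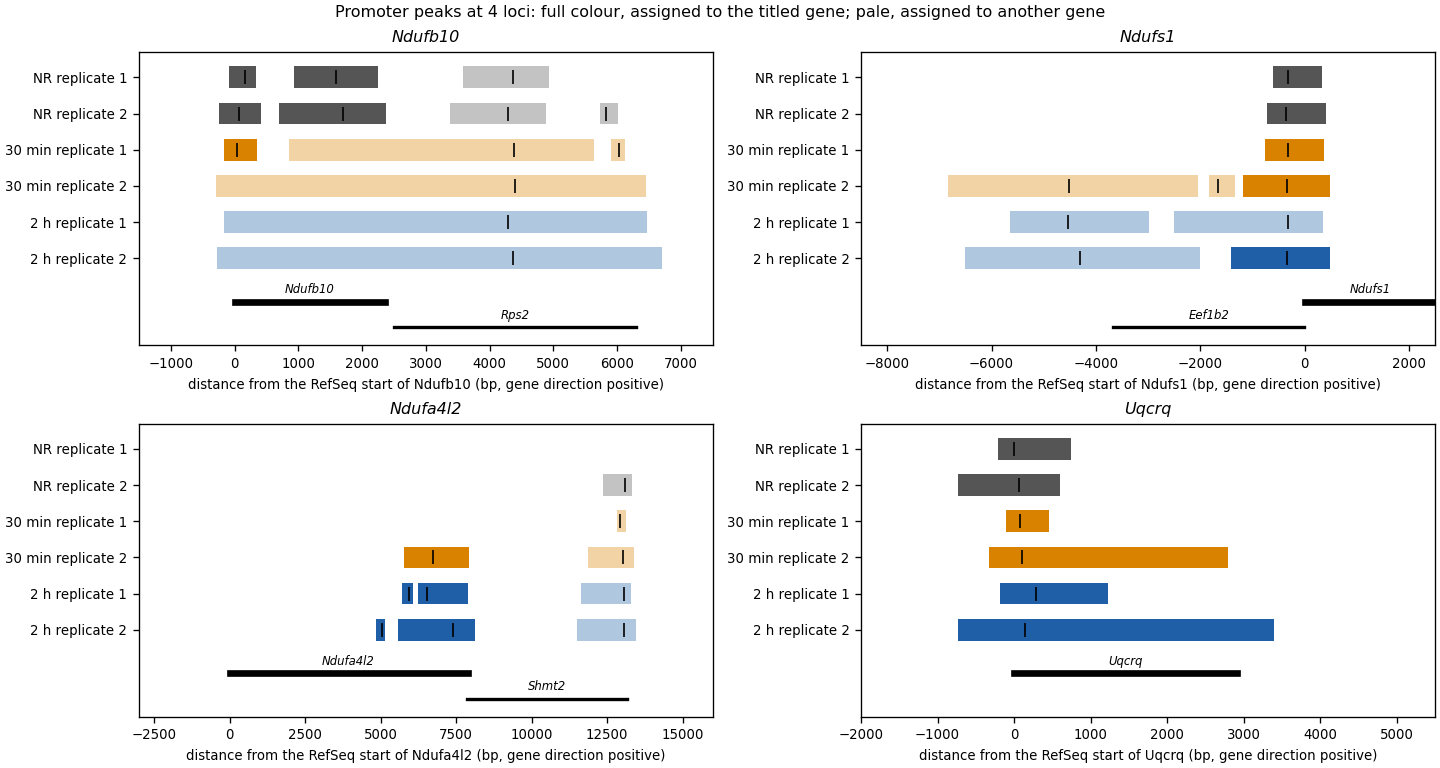
Called promoter peaks (bars, with summits as ticks) around the RefSeq starts of Ndufb10, Ndufs1, Ndufa4l2 and Uqcrq in the 6 libraries, with distance from the start in bp on the horizontal axis and gene bodies as black lines. Full colour marks peaks assigned to the titled gene and pale colour peaks assigned to another gene; at Ndufb10 the peaks of 30 min replicate 2 and both 2 h libraries span the gene and Rps2 as 1 region, and at Ndufa4l2 called DNA lies 4858 to 8132 bp from the start.

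Away from the start sites, few summits lay inside these genes. The lists of all peaks placed 59 and 64 summits within the RefSeq spans of the 75 genes in NR, with 62 and 80 at 30 min, then 83 and 82 in the 2 h libraries. Outside the promoter class lay 2 and 4 of these summits in NR, with 2 and 13 at 30 min and 12 and 14 at 2 h. They fell in 2 and 4 genes in NR, 2 and 9 at 30 min and 9 and 10 at 2 h. As a share of the summits in these genes this was 3.39% and 6.25% in NR, 3.23% and 16.3% at 30 min and 14.5% and 17.1% at 2 h. Among all summits of a list, those between genes included, the share was 52.9% and 41.1% in NR, 40.8% and 54.2% at 30 min and 47.5% and 51.0% at 2 h, where NR and 2 h overlap. Atp5g2, Ndufa4l2, Ndufa6 and Ndufab1 had such a summit in both 2 h libraries. Of these, Atp5g2 also had one in 30 min replicate 2, and Ndufa4l2 in that library and both NR libraries. Ndufab1 had one in NR replicate 2 and both 30 min libraries as well. The counts were not tested.

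Counting by position brought in the 13 genes assigned to neighbours and left the outcome of the test as it was. None of these 13 and none of the 74 tested genes of the rule passed in any comparison. For the 13, the median log2 change was 0.03 between 30 min and NR, -0.16 between 2 h and NR and -0.13 between 2 h and 30 min. Ndufb1, whose region had 2183 and 3864 bp at 30 min, against 1555 and 1582 bp in NR, was the highest of the 13 at 30 min with 0.70, and Atp5md the highest at 2 h with 0.73, with 1524 and 1509 bp at 2 h, against 457 and 788 bp in NR. The smallest limma adjusted p among the 13 in any comparison was 0.271.

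The wider pathway gave the same picture for lists chosen by function. In the list of electron carriers and subunits with other names, 3 of 6 symbols were found among the tested genes, and 0 passed in any comparison. They were Cycs (cytochrome c), Cyc1 (cytochrome c1) and Minos1, with a median change of 0.32 at 2 h against NR. Minos1 is a gene of the MICOS complex that shapes cristae and not itself a carrier or subunit. Symbols were matched as written, so a symbol not found does not mean a gene without a peak. Dmac2, for example, is the RefSeq symbol of Atp5sl, which was tested in the group. Of the assembly factors with other names 33 of 41 were tested and 0 passed, with medians of -0.01 at 30 min and -0.02 at 2 h against NR. Their highest change at 30 min was that of Cox20 (1.48 ± 0.42, limma adjusted p = 0.440), which had 2712 and 11507 bp at 30 min, against 1597 and 1893 bp in NR. Of the citrate cycle and pyruvate dehydrogenase genes all 18 were tested, had a peak in every library and gave 0 calls, with medians of -0.05 and -0.09. Idh3g, a subunit of isocitrate dehydrogenase, was highest in both comparisons with NR (limma adjusted p = 0.424 at 2 h), and it had 2011 and 2264 bp at 2 h, against 289 and 1307 bp in NR.

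Regulators of mitochondrial gene expression were tested for 11 of 15 genes, again with 0 passing and medians of 0.10 at 30 min and -0.14 at 2 h against NR. Esrra, a nuclear receptor that acts on respiratory genes, had the highest change at 2 h against NR, 1.91 ± 1.03 (limma adjusted p = 0.497). It had 0 and 895 bp in NR, 301 and 1797 bp at 30 min and 1269 and 1891 bp at 2 h. Ppargc1b, a coactivator of those genes, had no peak in 30 min replicate 1 and 1681 to 2352 bp in the other 5 libraries, and was the lowest at 30 min (-2.21 ± 1.13, limma adjusted p = 0.705). Nrf1 and Yy1, which encode factors whose motifs are described above, had 1576 to 2182 bp and 1779 to 6384 bp over the 6 libraries. Genes of the group with and without NRF1 letters in their window had median changes at 2 h against NR of 0.04 (15 genes) and -0.02 (47 genes), and those with and without YY1 letters -0.12 (10 genes) and 0.03 (52 genes).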

How the data were processed

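Polymerase II ChIP-seq peak lists of 6 libraries were used, 2 each for NR, 30 min and 2 h. Per the submitters' processing notes, BWA 0.7.13, Picard 1.119, MACS2 2.1.0 and the build mm10 were used, with no role or order stated. The sources used here give no tool for assigning peaks to genes. Each library has its own lists, so peaks were called per library and not on pooled libraries. The deposited tables give, per the file headers, a pileup signal at the summit, a fold enrichment ratio over local background, and −log10 values of the p-value and the q-value. The smallest deposited −log10 q was 1.31 to 1.37. These authors' values were used only within a library. Steps in the deposited signal show that the replicate 2 lists were scaled (0.58, 0.71 and 0.65 per read) and the others were not.

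Called length is the sum of the authors' promoter peaks of a gene in bp. It was fitted in limma 3.58.1 under R 4.3.3 (lmFit, eBayes with trend) with a pseudocount of 100 bp, median centring, a minimum of 2 libraries with a peak and group as the only term. Tables were made with pandas 2.3.3. The script was tested on simulated data. Alternatives were a pseudocount of 1000 bp, no filter, no centring, quantile normalisation, peaks with −log10 q of at least 5, lists cut to equal length, counting by position, a replicate block, fits of 4 libraries and leaving out each library.

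Replicate numbers are shared between groups in the labels. Deviations of same-numbered libraries correlated at 0.44 (NR with 30 min), 0.27 (NR with 2 h) and 0.41 (30 min with 2 h). The number also moves with depth, so these correlations cannot show whether same-numbered libraries share an animal or culture. GRCm38.p6 is the RefSeq name of mm10, and genes were matched by gene ID. Windows on overlapping opposite strands were reverse complements in 329 of 329 pairs.

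Named genes are those past the threshold, the 5 largest changes each way without overlap in bp, genes with a peak in under 6 libraries, the 5 highest and 5 lowest in enrichment rank, the 5 longest, and fixed subunits and isoform pairs. Ndufv3 and the extremes of a list were named after their values were seen. The members and lists were chosen with earlier results of these data known. The values of 1 gene are not reported here singly, and it enters the counts and medians.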

Additional observations from a re-analysis of the deposited data

How the results depend on the processing

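Replicate 1 libraries are shallower by their background, and lists hold no read counts, so small changes in polymerase density at these genes could not be seen. Where neighbouring peaks merge, called length can also jump or pass to another gene, as at Ndufb10, without a matching change in density being shown. No oxidative phosphorylation gene passed in any comparison under a pseudocount of 1000 bp, no filter, no centring, quantile normalisation, stricter peaks, lists of equal length, counting by position or the replicate block. In the fits of the 4 libraries compared, 1 was longer (Ndufa4l2) and 1 shorter (Ndufb10) at 2 h against NR. With 1 library left out, the count of longer genes ran from 0 to 2 at 30 min against NR, 0 to 1 at 2 h against NR and 0 to 1 at 2 h against 30 min, and that of shorter genes from 0 to 0, 0 to 1 and 0 to 1. The calls arose without a 30 min library.

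Over all genes, the count past the threshold at 30 min against NR was 24, with 40 under the larger pseudocount, 14 by position and 4 to 227 with 1 library left out. At 2 h against NR it was 43, with 112 under the larger pseudocount, 79 under quantile normalisation, 86 with equal lists, 24 by position, 173 in the 4 libraries compared and 4 to 186 with 1 library left out. At 2 h against 30 min it was 0, with 8, 1 and 4 under the larger pseudocount, quantile normalisation and equal lists, and 0 to 206 with 1 library left out. The cause was not tested. The median change of the group without centring was 0.15, 0.50 and 0.33 in the 3 comparisons, since the centring of 0.16, 0.48 and 0.32 is then kept in. With 1 library left out it ran from -0.086 to 0.031, -0.044 to 0.028 and -0.035 to 0.079.

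With the replicate number as a block, 19, 33 and 0 of all genes and 0 of the group passed, and the block changed no other call.

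Single genes that reversed had small or library-bound changes, and the cause was not tested. At 30 min against NR without 30 min replicate 1, Cox7c had -0.037, Ndufa9 -0.29 and Ndufa12 -0.35, and without other libraries they reached 0.64, 0.53 and 0.38. Ndufa12 also had -0.012 under the larger pseudocount, -0.19 with stricter peaks and -0.03 without NR replicate 2. At 2 h against NR, Ndufaf6 had -0.015 without NR replicate 1 and up to 2.52 without another library, and Uqcrq -0.069 without 2 h replicate 2 and up to 1.18. By position, Ndufb10 had 0.55 at 30 min and 0.33 at 2 h against NR, where peaks assigned to a neighbour are counted in, and Ndufaf3 -0.18 at 2 h against 30 min, where its called DNA beyond 1000 bp from the gene is left out.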
